A study of Mus musculus with 20 samples.

Results

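Collagen becomes a stable, insoluble fibre only after a series of enzymes has modified it, and the 10 genes that encode many of these enzymes are described here across the livers of 20 male mice. Members were the rows of the deposited table whose gene name is Lox, Loxl1, Loxl2, Loxl3, Loxl4, P4ha1, P4ha2, P4ha3, Plod1 or Plod2, and all 10 of 10 names were found once each among 38924 genes. The mice were C57BL/6J wild type (WT) or TSP-1 knockout animals, bought at 5 weeks of age, acclimated for 1 week and then fed for 12 weeks either a control diet or CDAHFD, a high fat diet that lacks choline, holds little methionine and injures the liver. NDWT and HFWT stand for WT mice on the control diet and on CDAHFD, NDKO and HFKO for TSP-1 null mice on the same diets in that order, and each group had 5 mice with 1 library per mouse. WT and knockout mice were purchased as separate stocks and nothing states that they were littermates, so genotype and stock cannot be told apart. Values are FPKM (fragments per kb of gene length scaled to the fragments that each library had assigned to genes) in whole liver RNA, in which more cells of a type and more RNA per cell cannot be told apart.

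Inside the endoplasmic reticulum, prolyl 4-hydroxylases convert proline to hydroxyproline, which the collagen triple helix needs to be stable at body temperature. Each enzyme pairs catalytic alpha subunits (P4ha1, P4ha2 or P4ha3) with protein disulphide isomerase (P4hb) as the beta subunit. Lysyl hydroxylases (Plod1, Plod2 and the non-member Plod3) hydroxylate lysines in the helix or, for Plod2, in the telopeptides at the chain ends, where hydroxylysine leads to the crosslinks that are hardest to degrade. Outside the cell, the copper enzymes of the lysyl oxidase family (Lox and Loxl1 to Loxl4) oxidise lysine and hydroxylysine in collagen and elastin, and the aldehydes formed then react to join neighbouring chains. The hydroxylases need iron, oxygen, 2-oxoglutarate and ascorbate. In fibrotic liver, activated stellate cells are regarded as the main source of the crosslinked matrix.

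Libraries held 15641545 to 23276322 fragments assigned to genes, and no pair of libraries within a group agreed within sampling noise. Differences were tested with limma on log2(FPKM + 0.1) over 14524 genes (those above 0.5 FPKM in 5 or more libraries), and a gene was called at a Benjamini-Hochberg false discovery rate (FDR) under 0.05 with an absolute log2 fold change (log2FC) above 0.58. Thbs1, the gene that encodes TSP-1, was at 0.058 to 0.326 FPKM in NDWT and 0.986 to 1.9 FPKM in NDKO, so the 2 groups did not overlap and the libraries labelled TSP-1 null were the higher, and it was at 3.46 to 6.1 FPKM in HFWT and 3.05 to 4.4 FPKM in HFKO. A gene-level value does not separate exons, and the part of Thbs1 that the null allele lacks is not given in the sources used here, so the level does not check the labels and genotype directions below rest on the labels alone. The libraries carried liver RNA, with Alb, the gene of serum albumin, at 16870 to 25880 FPKM even in HFWT. HFWT replicate 5 had 5.55% of its fragments on Gm26924 and Gm23935 where the others had 0.18% to 1.98%. The summed FPKM of 12 stellate cell and myofibroblast markers was 67.0 to 91.2 in control libraries and 221.8 to 422.8 in CDAHFD libraries. That of 9 macrophage markers was 170.1 to 299.6 against 741.7 to 1626, that of 7 cholangiocyte markers 18.3 to 24.5 against 193.7 to 505.6, and that of 6 markers of mesothelium and vascular smooth muscle 2.16 to 4.32 against 6.31 to 14.8. Sums overlapped between diets for 8 markers of sinusoidal endothelium (63.3 to 88.3 against 74.6 to 114.1) and for 10 of hepatocytes (40030 to 52010 against 30060 to 49710). Single markers did not all follow the sums. Of the 9 macrophage markers, 5 were called higher and 2 lower on CDAHFD in WT, and 6 and 2 in libraries labelled TSP-1 null. Of the 10 hepatocyte markers, 3 were called lower and 0 higher in each genotype. Under 2 other scalings of the libraries that hepatocyte count was 0 to 10 lower. None of the markers in these lists was at 0 throughout a group, and their part in the member values was not tested.

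Promoters of 3 members from the RefSeq table are shown first, because P4ha1 and P4ha2 were the members that differed between genotypes on the control diet and Plod1 was the member whose level moved least. The table has an entry for 5 of the 10 members (P4ha1, P4ha2, P4ha3, Plod1 and Loxl4). Each sequence is the 250 bases before the RefSeq start on GRCm38.p6, written 5′ to 3′ on the strand of the gene, and capitals mark ACGTG or GCGTG on either strand, the core that hypoxia-inducible factors bind.
P4ha1 (chr10:59323046-59323295, plus strand): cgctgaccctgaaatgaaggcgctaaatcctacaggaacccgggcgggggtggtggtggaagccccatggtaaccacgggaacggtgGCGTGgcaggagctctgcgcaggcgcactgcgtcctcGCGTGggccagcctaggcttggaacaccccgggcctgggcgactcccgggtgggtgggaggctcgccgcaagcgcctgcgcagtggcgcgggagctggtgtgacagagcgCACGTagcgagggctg
P4ha2 (chr11:54100674-54100923, plus strand): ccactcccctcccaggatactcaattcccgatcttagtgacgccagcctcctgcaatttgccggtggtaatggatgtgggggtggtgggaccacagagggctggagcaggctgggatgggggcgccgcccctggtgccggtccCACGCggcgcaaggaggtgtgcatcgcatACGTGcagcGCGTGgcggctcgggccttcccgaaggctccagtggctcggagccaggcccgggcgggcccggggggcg
Plod1 (chr4:147936777-147937026, minus strand): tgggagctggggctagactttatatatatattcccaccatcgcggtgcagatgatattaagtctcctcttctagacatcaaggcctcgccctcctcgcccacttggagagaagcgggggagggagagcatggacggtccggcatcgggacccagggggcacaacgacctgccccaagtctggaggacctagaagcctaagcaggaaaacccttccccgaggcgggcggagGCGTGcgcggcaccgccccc
The P4ha1 window held 3 matches, beginning 163, 126 and 16 bases before the start, and the P4ha2 window held 3, beginning 107, 78 and 69 bases before it. The RefSeq start of P4ha2 lies inside the gene as the deposited table bounds it. The Plod1 window held 1 match, 20 bases before the start. The Loxl4 window also held 1 match and the P4ha3 window 0. At least 1 of these cores occurred in 38.6% of the 32851 promoters of the same length, ACGTG in 16.6% and GCGTG in 28.2%. Neither CAGACA, a SMAD-type motif (17.1% of all promoters), nor TGANTCA, an AP-1 site (6.75%), nor GGAATG, a TEAD-type motif (12.6%), was found on either strand of the 5 windows. TATAAA was found in the Plod1 window alone of the 5 (12.4% of all promoters), and GGGCGG, an Sp1-type box (32.7%), was found in all 5. These matches describe the letters in the windows only.

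On the FPKM scale, the diet comparison in WT mice moved the lysyl oxidase family and Plod2 and left the main hydroxylase genes near their control level. Of the 9 members tested, 6 were called, all higher on CDAHFD (Lox, Loxl1, Loxl2, Loxl3, Loxl4 and Plod2), against 48.8% of all tested genes called in either direction and 44.1% called higher. Their mean FPKM was 3.31 to 26.7 times the control mean. P4ha1, P4ha2 and Plod1 were not called. Median of ratios scaling called 6 members higher and 1 lower (Plod1) in WT, and quantile normalization called 5 higher and 1 lower (P4ha2). In libraries labelled TSP-1 null the same comparison called 8 of 9 members higher, against 45.9% of tested genes called and 41.9% called higher, with P4ha1 and P4ha2 in addition and Plod1 as the exception, and this count was 5 of 9 under median of ratios scaling, under quantile normalization or with a pseudocount of 1. Groups did not overlap for 6 of the 9 members in WT (56.2% of all tested genes) and for 5 of 9 in libraries labelled TSP-1 null (57.8%). Lox, Loxl2 and Plod2 exceeded 0.5 FPKM in no control library and so entered the test through their CDAHFD values alone. Loxl4 exceeded it in 10 CDAHFD libraries but in only 2 control libraries, and so also needed its CDAHFD values to enter. This leaves those counts, and the diet FDR values of Lox, Loxl2, Loxl4 and Plod2 given below, as descriptions.

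**Figure D1:**
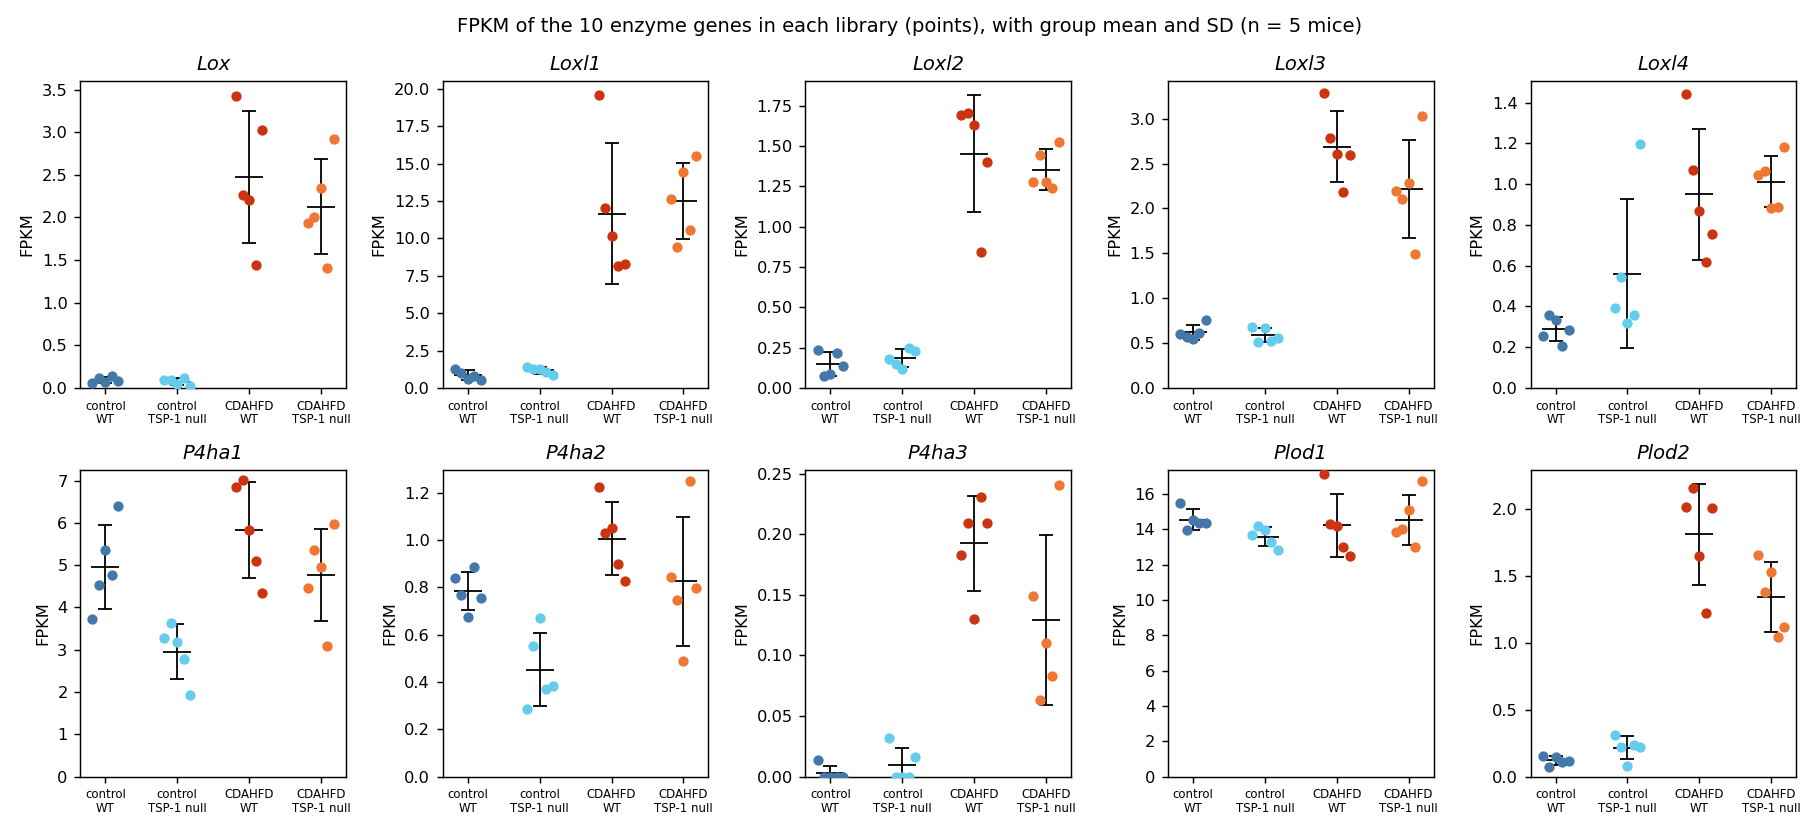
FPKM of each of the 10 genes (vertical axes, linear from 0, scaled per gene) in the 4 groups, with 1 point per library and the group mean and SD (n = 5 mice). Lox, Loxl1, Loxl2, Loxl3 and Plod2 separate completely by diet, Plod1 stays between 12.5 and 17.1 FPKM in all 20 libraries, and P4ha1 and P4ha2 are lower in every NDKO library than in any NDWT library.

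All gene levels rest on a scale that itself shifted with diet, which bears on every diet value here. FPKM divides by all fragments assigned to genes, and the median log2FC over the 14524 tested genes was 0.53 in WT and 0.50 in libraries labelled TSP-1 null. Under median of ratios scaling, which sets that median near 0, calls over all genes went from 6412 higher of 7083 to 3299 higher and 2242 lower in WT, and from 6088 higher of 6669 to 3225 higher and 1980 lower in libraries labelled TSP-1 null. Relative to the median of all genes, Lox was higher by 3.17, Loxl1 by 3.10, Plod2 by 2.57, Loxl2 by 2.12, Loxl3 by 1.42 and Loxl4 by 0.87 in WT on the log2 scale. P4ha1, P4ha2 and Plod1 lay at -0.30, -0.22 and -0.57 relative to it. The 2 genotype comparisons had medians of -0.07 and -0.10.

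Lox encodes the founding enzyme of the family and lies on chromosome 18 (52516069 to 52529867, minus strand, GRCm38 as are all gene positions here). It was at 0.054, 0.112, 0.07, 0.145 and 0.083 FPKM in NDWT and at 0.091, 0.091, 0.044, 0.117 and 0.021 FPKM in NDKO. On CDAHFD it was at 3.43, 2.26, 2.21, 1.44 and 3.03 FPKM in HFWT and 1.94, 2.01, 2.35, 1.41 and 2.92 FPKM in HFKO. Every CDAHFD library was thus above every control library, and the 2 genotypes overlapped on both diets. The mean was 26.7 times the control mean in WT (log2FC 3.70 ± 0.24 (SE), FDR 7.13e-11) and 29.2 times in libraries labelled TSP-1 null (log2FC 3.68 ± 0.24 (SE), FDR 1.03e-10). Control levels rested on 2 to 12 fragments per library, and the fitted log2FC in WT ranged from 1.64 to 4.69 over the alternatives, with the pseudocount among them.

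Loxl1, whose enzyme is known above all for crosslinking elastin, was the most abundant of the 5 genes per unit of length in the mean of every group (chromosome 9, 58287723 to 58313212, minus strand). It was at 1.29, 1.02, 0.589, 0.821 and 0.496 FPKM in NDWT and 1.41, 1.25, 1.23, 1.09 and 0.859 FPKM in NDKO. In HFWT it reached 19.6, 12, 10.2, 8.17 and 8.3 FPKM and in HFKO 12.6, 9.42, 14.4, 10.6 and 15.5 FPKM. The diets did not overlap, while HFWT replicate 1 stood well above the other HFWT libraries. The mean rose 13.8-fold in WT (log2FC 3.63 ± 0.24 (SE), FDR 1.14e-10) and 10.7-fold in libraries labelled TSP-1 null (log2FC 3.31 ± 0.24 (SE), FDR 5.2e-10).

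Loxl2 is an oxidase of collagen IV and of fibrillar collagen that has been studied as a target in liver fibrosis (chromosome 14, 69609068 to 69693698, plus strand). Its range was 0.073 to 0.237 FPKM in NDWT and 0.115 to 0.249 FPKM in NDKO, and 0.843 to 1.71 FPKM in HFWT and 1.24 to 1.52 FPKM in HFKO. The mean rose 9.71-fold in WT (log2FC 2.65 ± 0.22 (SE), FDR 2.46e-09) and 7.37-fold in libraries labelled TSP-1 null (log2FC 2.38 ± 0.22 (SE), FDR 1.29e-08). Loxl3, the family member closest to Loxl2 in its domains (chromosome 6, 83034173 to 83052562, plus strand), was already above 0.5 FPKM in all 10 control libraries, at 0.549 to 0.753 in NDWT and 0.514 to 0.681 in NDKO. It rose 4.36-fold to 2.69 ± 0.397 FPKM (SD, n = 5) in HFWT (log2FC 1.95 ± 0.15 (SE), FDR 8.38e-10) and 3.78-fold to 2.22 ± 0.546 FPKM in HFKO (log2FC 1.73 ± 0.15 (SE), FDR 5.56e-09), with no overlap between diets in either genotype. Exons of Loxl2 overlap those of Gm27177 and of Mir6950, and exons of Loxl3 overlap those of Htra2. Those of Lox overlap AC161119.1 on the opposite strand. The strand setting of the counting is not given in the sources used here, so reads of opposite-strand partners could not be told apart.

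Loxl4 (chromosome 19, 42593982 to 42612813, minus strand) had the smallest change of the family. It was at 0.255, 0.356, 0.333, 0.207 and 0.286 FPKM in NDWT, 0.391, 0.543, 0.317, 0.356 and 1.2 FPKM in NDKO, 1.44, 1.07, 0.866, 0.619 and 0.755 FPKM in HFWT and 1.04, 1.06, 0.884, 0.889 and 1.18 FPKM in HFKO. The diets separated completely in WT, whereas in libraries labelled TSP-1 null the control library of replicate 5 (1.20 FPKM) lay above every HFKO library. The rise in WT was log2FC 1.40 ± 0.26 (SE), FDR 7.6e-05, and that in libraries labelled TSP-1 null was log2FC 0.88 ± 0.26 (SE), FDR 0.00504. The second call was lost under median of ratios scaling (log2FC 0.42, FDR 0.163) and turned to -0.09 under quantile normalization, where the WT value also fell to 0.20 (FDR 0.502).

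P4ha1 encodes the alpha subunit of the type I enzyme, the common form in most tissues (chromosome 10, 59323296 to 59373304, plus strand; the promoter above ends at its start). It was at 3.72, 4.53, 5.35, 4.77 and 6.4 FPKM in NDWT and 6.84, 7, 5.84, 5.11 and 4.33 FPKM in HFWT, which overlap (log2FC 0.23 ± 0.19 (SE), FDR 0.281). In libraries labelled TSP-1 null it was at 3.29, 3.63, 3.17, 2.78 and 1.92 FPKM on the control diet and 4.47, 5.36, 4.95, 3.09 and 5.98 FPKM on CDAHFD, and the diets overlapped although the gene was called (log2FC 0.67 ± 0.19 (SE), FDR 0.00385). That call was lost without NDKO replicate 5 (log2FC 0.53, FDR 0.0144) or HFKO replicate 5 (log2FC 0.58, FDR 0.0141), when the value was under the fold threshold, and under median of ratios scaling (log2FC 0.15, FDR 0.508). It was also lost under quantile normalization (log2FC 0.01, FDR 0.980).

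P4ha2 encodes the alpha subunit of the type II enzyme, described in cartilage and other matrix-forming cells (chromosome 11, 54100095 to 54131665, plus strand). It was at 0.84, 0.768, 0.675, 0.887 and 0.755 FPKM in NDWT and 1.22, 1.03, 1.05, 0.9 and 0.825 FPKM in HFWT, with 1 HFWT library below the highest NDWT library (log2FC 0.32 ± 0.20 (SE), FDR 0.164). In libraries labelled TSP-1 null it was at 0.287, 0.55, 0.669, 0.371 and 0.381 FPKM on the control diet and 0.842, 0.748, 0.49, 1.25 and 0.799 FPKM on CDAHFD (log2FC 0.74 ± 0.20 (SE), FDR 0.00281). The diets again overlapped, the call was lost under median of ratios scaling (log2FC 0.29, FDR 0.222), and quantile normalization turned the value to -0.30 there and to -0.73 (FDR 0.00806) in WT.

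P4ha3, the third alpha subunit gene (chromosome 7, 100285520 to 100319699, plus strand), stayed below 0.5 FPKM in all 20 libraries and was not tested. It had 1 fragment in 94876349 over the 5 NDWT libraries and 55 in 94285201 over the 5 HFWT libraries, a ratio of 55.3 (exact 95% interval 9.53 to 2225, counting error only). In libraries labelled TSP-1 null it had 3 fragments in 98260337 on the control diet and 38 in 94530053 on CDAHFD, a ratio of 13.2 (4.18 to 66.7). Single libraries reached 0.13 to 0.231 FPKM in HFWT and 0.063 to 0.241 FPKM in HFKO, and every CDAHFD library was above every control library of its genotype. With no filter on low values, over 25536 genes, its log2FC was 1.5 in WT (FDR 3.14e-07) and 1.02 in libraries labelled TSP-1 null (FDR 3.47e-05).

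Plod1, which hydroxylates lysines in the triple helix and whose loss causes a form of Ehlers-Danlos syndrome, was the most abundant member (chromosome 4, 147909753 to 147936767, minus strand). It was at 15.5, 14, 14.5, 14.4 and 14.4 FPKM in NDWT, 13.7, 14.2, 14, 13.3 and 12.8 FPKM in NDKO, 17.1, 14.3, 14.2, 13 and 12.5 FPKM in HFWT and 13.9, 14, 15.1, 13 and 16.7 FPKM in HFKO. All groups overlapped. The diet difference in WT was log2FC -0.04 ± 0.08 (SE), FDR 0.653, with a 95% interval of -0.20 to 0.12, and in libraries labelled TSP-1 null it was log2FC 0.09 ± 0.08 (SE), FDR 0.289, with an interval of -0.07 to 0.26. Under median of ratios scaling Plod1 was lower on CDAHFD by -0.60 in WT (FDR 8.22e-08, called) and -0.44 in libraries labelled TSP-1 null (FDR 5.15e-06, under the fold threshold), so a steady Plod1 holds on the FPKM scale only.

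Plod2, the telopeptide lysyl hydroxylase (chromosome 9, 92542223 to 92608428, plus strand), contrasted with Plod1. It was at 0.154, 0.072, 0.148, 0.112 and 0.12 FPKM in NDWT and 2.02, 2.16, 1.65, 1.22 and 2.01 FPKM in HFWT. In libraries labelled TSP-1 null it was at 0.313, 0.221, 0.077, 0.24 and 0.225 FPKM on the control diet and 1.66, 1.38, 1.53, 1.04 and 1.12 FPKM on CDAHFD. The diets did not overlap in either genotype. The mean was 14.9 times the control mean in WT (log2FC 3.10 ± 0.21 (SE), FDR 2.27e-10) and 6.25 times in libraries labelled TSP-1 null (log2FC 2.23 ± 0.21 (SE), FDR 2.47e-08). Control levels rested on 5 to 27 fragments per library, and exons of Plod2 overlap those of Gm38391 on the opposite strand. Plod3, the third lysyl hydroxylase and no member, was at 8.07 ± 1.4 FPKM in NDWT and 11.3 ± 2 in HFWT (log2FC 0.47 ± 0.13 (SE), FDR 0.00359, under the fold threshold) and went from 6.33 ± 0.875 to 10.8 ± 1.16 FPKM in libraries labelled TSP-1 null (log2FC 0.77 ± 0.13 (SE), FDR 3.66e-05).

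**Figure D2:**
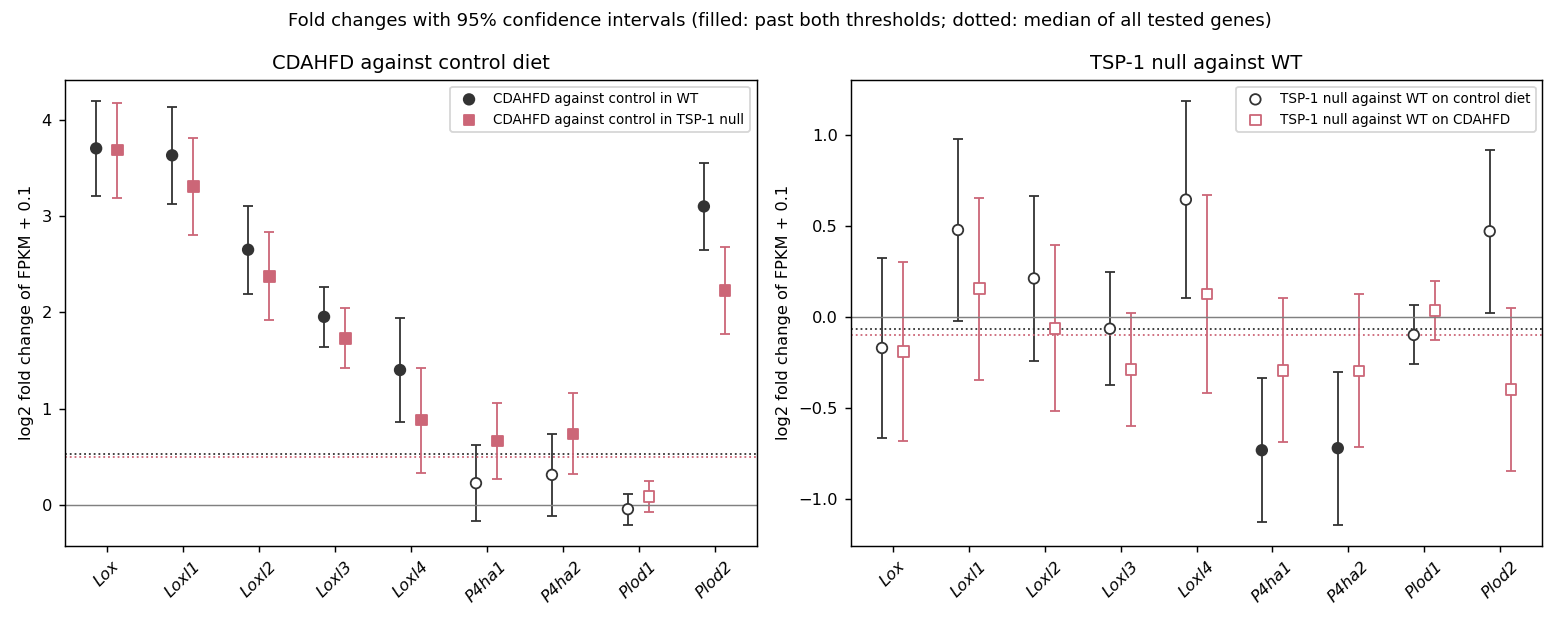
Log2 fold change of FPKM + 0.1 (vertical axis) for the 9 tested genes with 95% confidence intervals, for the 2 diet comparisons (left) and the 2 genotype comparisons (right); filled symbols passed both thresholds and dotted lines give the median of all tested genes. Lox, Loxl1 and Plod2 lie highest in the diet comparison in WT at 3.70, 3.63 and 3.10, and only P4ha1 and P4ha2 are filled in the genotype comparisons.

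The genotype comparison on the control diet called 2 of 9 members, P4ha1 and P4ha2, both lower in libraries labelled TSP-1 null, against 4.77% of tested genes called and 3.03% called lower. P4ha1 was at 2.96 ± 0.652 FPKM in NDKO against 4.95 ± 0.998 in NDWT (SD, n = 5), 0.597 times as much (log2FC -0.73 ± 0.19 (SE), FDR 0.0149). P4ha2 was at 0.452 ± 0.154 FPKM against 0.785 ± 0.0817, 0.575 times as much (log2FC -0.72 ± 0.20 (SE), FDR 0.0231). For both, every NDKO library lay below every NDWT library, as for 9.03% of all tested genes without overlap in either direction, with the closest P4ha1 libraries at 3.63 and 3.72 FPKM and the closest P4ha2 libraries at 0.669 and 0.675 FPKM. P4ha1 kept its call in all 33 alternatives, with FDR between 0.00863 and 0.0469. Some of these test it little, since they leave out a CDAHFD mouse or drop the fold threshold. P4ha2 lost its call in 4 of the 33, which were a pseudocount of 1, quantile normalization (log2FC -0.63, FDR 0.0879) and leaving out NDKO replicate 1 (-0.60, FDR 0.0727) or replicate 4 (-0.68, FDR 0.0537). P4hb, the beta subunit that P4ha1 and P4ha2 both need, was at 351 ± 31.7 FPKM in NDKO and 469 ± 46.8 in NDWT, also with no overlap (log2FC -0.42 ± 0.08 (SE), FDR 0.00293), but its difference was under the fold threshold.

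The other 7 tested members were not called between genotypes on the control diet. Loxl4 (log2FC 0.65, FDR 0.110), Loxl1 (0.48, FDR 0.204) and Plod2 (0.47, FDR 0.161) had the largest differences, all higher in NDKO, and Plod2 passed without NDKO replicate 3 (log2FC 0.67, FDR 0.0293). With a mouse left out the Loxl4 value ranged from 0.37 to 0.78. Its NDKO replicate 5 was at 1.20 FPKM, and the other NDKO libraries were at 0.317 to 0.543. The intervals were 0.10 to 1.19 for Loxl4, -0.02 to 0.98 for Loxl1 and 0.02 to 0.92 for Plod2, so a difference as large as that of P4ha1 lay within all 3 intervals. Lox, Loxl2, Loxl3 and Plod1 lay between -0.17 and 0.21.

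On CDAHFD limma called 0 of 9 members between genotypes, with 0 at an unadjusted p under 0.05 and 0 called by voom on recovered fragments. Over all tested genes 0.496% were called (72 genes, and 38 to 47 without any 1 of HFWT replicates 2 and 3 and HFKO replicates 1 and 4), and groups did not overlap for 0 of 9 members and for 4.98% of all tested genes. The largest differences were in Plod2, at 1.34 ± 0.263 FPKM in HFKO and 1.81 ± 0.378 in HFWT (log2FC -0.40 ± 0.21 (SE), FDR 0.349, 95% interval -0.85 to 0.05), and in P4ha2, P4ha1 and Loxl3 (log2FC -0.30, -0.29 and -0.29). Lox differed by -0.19 (-0.68 to 0.30), Loxl1 by 0.16 (-0.34 to 0.66) and Loxl2 by -0.06 (-0.52 to 0.39).

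The interaction (the difference HFKO minus HFWT from which NDKO minus NDWT is taken off) passed for 0 of 9 members by limma and 0 by voom, against 0.647% of tested genes (94 genes, 36 to 57 without any 1 of NDWT replicate 3, NDKO replicates 1 and 4, HFWT replicates 3 and 4 and HFKO replicates 1, 2 and 4, and 184 without NDKO replicate 2), and 1 member, Plod2, had an unadjusted p under 0.05. Plod2 changed from a higher mean in NDKO to a lower mean in HFKO, an interaction of -0.87 ± 0.30 (SE, 95% interval -1.51 to -0.23, limma FDR 0.174), which failed the correction. The values for P4ha1 and P4ha2 were 0.44 (FDR 0.471) and 0.43 (FDR 0.521), so their genotype difference on the control diet was not shown to differ from that on CDAHFD.

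Within a family, the share of each gene in the summed FPKM does not depend on how libraries are scaled. They were tested by exact permutation of the libraries between groups of 5, two-sided, where the smallest possible p is 0.00794, and p-values were adjusted over 44 tests. The 5 lysyl oxidase genes summed to 1.99 ± 0.319 FPKM in NDWT and 19.2 ± 6.18 in HFWT, and to 2.57 ± 0.230 in NDKO and 19.2 ± 3.59 in HFKO. In WT the share of Lox went from 4.75% ± 1.81 to 13.1% ± 3.29 (exact p = 0.00794, FDR 0.0249) and that of Loxl1 from 41.3% ± 9.65 to 59.7% ± 5.44 (exact p = 0.0159, FDR 0.0466, ranges overlapping), a call lost when any 1 of 6 mice was left out. Loxl3 went from 31.8% ± 7.12 to 14.5% ± 2.13 and Loxl4 from 14.9% ± 4.37 to 4.92% ± 0.293 (each exact p = 0.00794, FDR 0.0249), so both lost share while their FPKM rose. Loxl2 held 7.40% and 7.74% (exact p = 0.825). In libraries labelled TSP-1 null the changes were 2.90% to 11.0% for Lox, 45.8% to 65.0% for Loxl1, 22.9% to 11.5% for Loxl3 and 21.2% to 5.37% for Loxl4, each with exact p = 0.00794 and no overlap, and Loxl2 held 7.15% and 7.19% (exact p = 0.960).

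Among the lysyl hydroxylases, Plod1 fell from 64.1% ± 3.95 to 52.2% ± 2.33 of the summed FPKM of Plod1, Plod2 and Plod3 in WT and from 67.6% ± 2.13 to 54.4% ± 0.308 in libraries labelled TSP-1 null. Plod2 rose from 0.535% ± 0.145 to 6.70% ± 1.57 and from 1.08% ± 0.433 to 5.07% ± 1.08. All 4 changes had an exact p = 0.00794 (FDR 0.0249) and no overlap, and the sum itself was 22.8 ± 1.46 FPKM in NDWT and 27.3 ± 3.66 in HFWT, and 20.1 ± 1.39 in NDKO and 26.7 ± 2.56 in HFKO. P4ha1 made up 82.6% to 86.3% of the alpha subunit FPKM in the group means and P4ha2 13.3% to 15.2%, and neither share passed a test in any comparison. P4ha3 rose from 0.0612% to 2.84% in WT and from 0.315% to 2.21% in libraries labelled TSP-1 null (each exact p = 0.00794, FDR 0.0249). In all, 7 of 11 shares passed in WT (4 without HFWT replicate 4, when Loxl1, Loxl4 and Plod1 no longer passed) and 8 of 11 in libraries labelled TSP-1 null between diets. Between genotypes 0 of 11 passed on either diet, with 2 at an unadjusted exact p under 0.05 on the control diet (Loxl3 and Plod2) and 1 on CDAHFD (Loxl3).

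**Figure D3:**
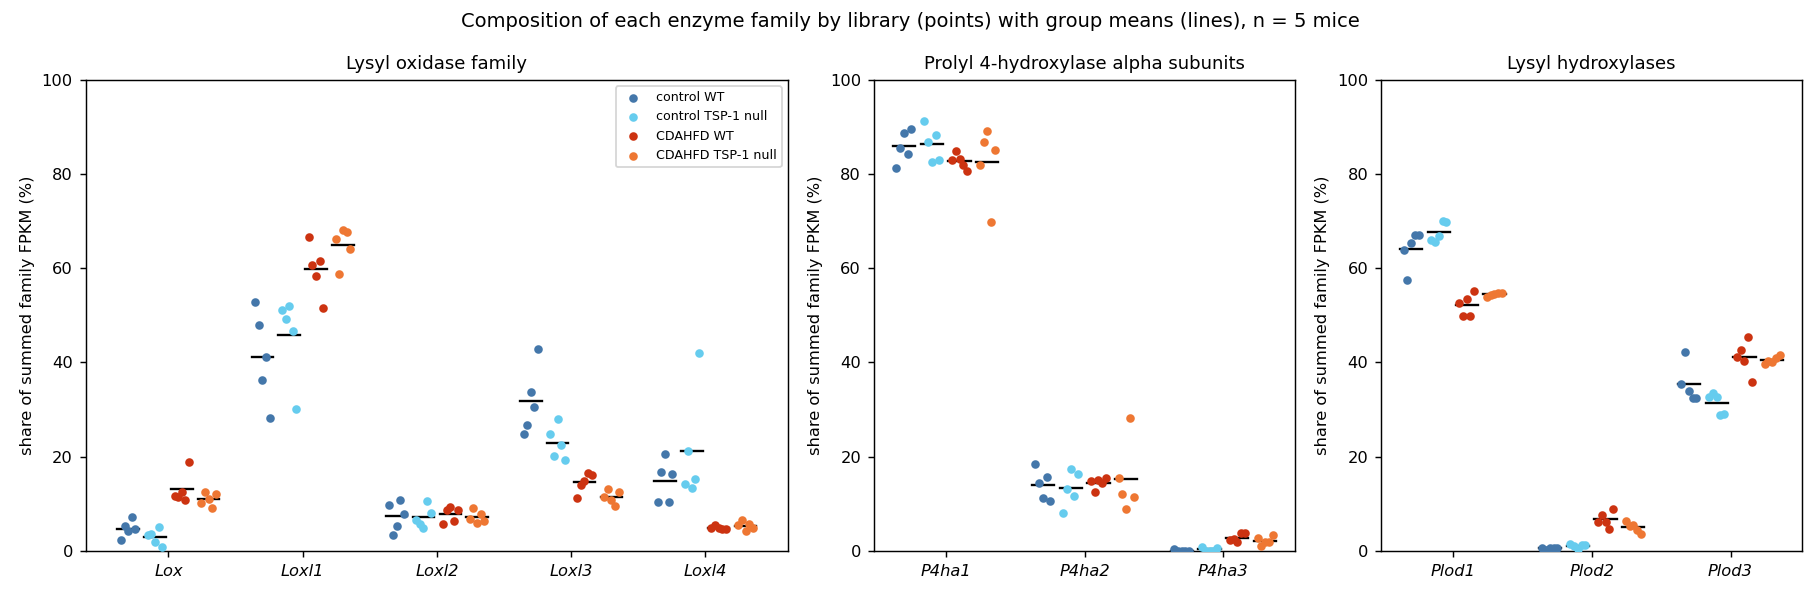
Share of each gene in the summed FPKM of its family (vertical axis, percent) for the lysyl oxidases, the prolyl 4-hydroxylase alpha subunits and the lysyl hydroxylases, with 1 point per library and lines at group means (n = 5 mice). Lox and Loxl1 take a larger share and Loxl3 and Loxl4 a smaller one on CDAHFD, Plod2 goes from about 1% or less to 5.07% to 6.70%, and the P4ha1 share stays above 80% in all group means.

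The fibrillar collagen genes Col1a1, Col1a2 and Col3a1 encode the main substrates of these enzymes. Their summed FPKM was 5.57 ± 1.24 in NDWT and 149.2 ± 48.5 in HFWT, and 5.04 ± 0.846 in NDKO and 136.4 ± 36.7 in HFKO. Against it, 8 members (all but Lox and P4ha3) were lower on CDAHFD in both genotypes (exact permutation of the log2 ratio with 0.1 added to both terms, exact p = 0.00794, FDR 0.0167 over 40 tests), and each passed in all 23 alternatives. Alternatives that leave out a mouse of the other genotype do not change the exact p of a diet comparison. In WT the log2FC of Col1a1, Col1a2 and Col3a1 exceeded that of 99.87%, 99.39% and 99.59% of all tested genes. Most genes would therefore fall against their sum. The share of all tested genes that did so was not computed, so this count describes the collagen rise and no trait particular to these enzymes. Plod1 went from 272.3 ± 65.0 FPKM per 100 collagen FPKM in NDWT to 10.01 ± 1.97 in HFWT, P4ha1 from 94.3 ± 33.5 to 4.06 ± 0.826, Loxl1 from 15.4 ± 5.38 to 7.71 ± 0.828, and Plod2 from 2.24 ± 0.632 to 1.26 ± 0.255. Lox was the closest to its substrate, at 1.86 ± 1.17 in NDWT and 1.69 ± 0.421 in HFWT, and at 1.41 ± 0.724 in NDKO and 1.57 ± 0.108 in HFKO. P4ha3 was at 0.0407 ± 0.0910 in NDWT and 0.140 ± 0.0539 in HFWT, and at 0.192 ± 0.266 in NDKO and 0.0929 ± 0.0326 in HFKO. Mean control levels of both genes lie below the added 0.1, so the constant damps their own rise within the log2 ratio. The differences for Lox were -0.99 in WT and -1.02 in libraries labelled TSP-1 null with 0.1 added, and -0.11 and 0.09 with 0.01 added, when neither passed. Those for P4ha3 were -3.19 and -3.68 with 0.1 added and -0.65 and -1.75 with 0.01 added, when the WT value did not pass and the other did. A fall of Lox in either genotype, or of P4ha3 in WT, relative to collagen was therefore not shown.

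Between genotypes on the control diet, 1 of 10 ratios passed, that of Loxl1, at 23.3 ± 2.63 FPKM per 100 collagen FPKM in NDKO and 15.4 ± 5.38 in NDWT (log2 ratio difference 0.61, exact p = 0.0159, FDR 0.0302). It no longer passed with a pseudocount of 1, with Col1a1 alone as the substrate or without any 1 of NDKO replicates 1, 2, 3 and 5. On CDAHFD 0 of 10 ratios passed, and 0 had an unadjusted exact p under 0.05.

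**Figure D4:**
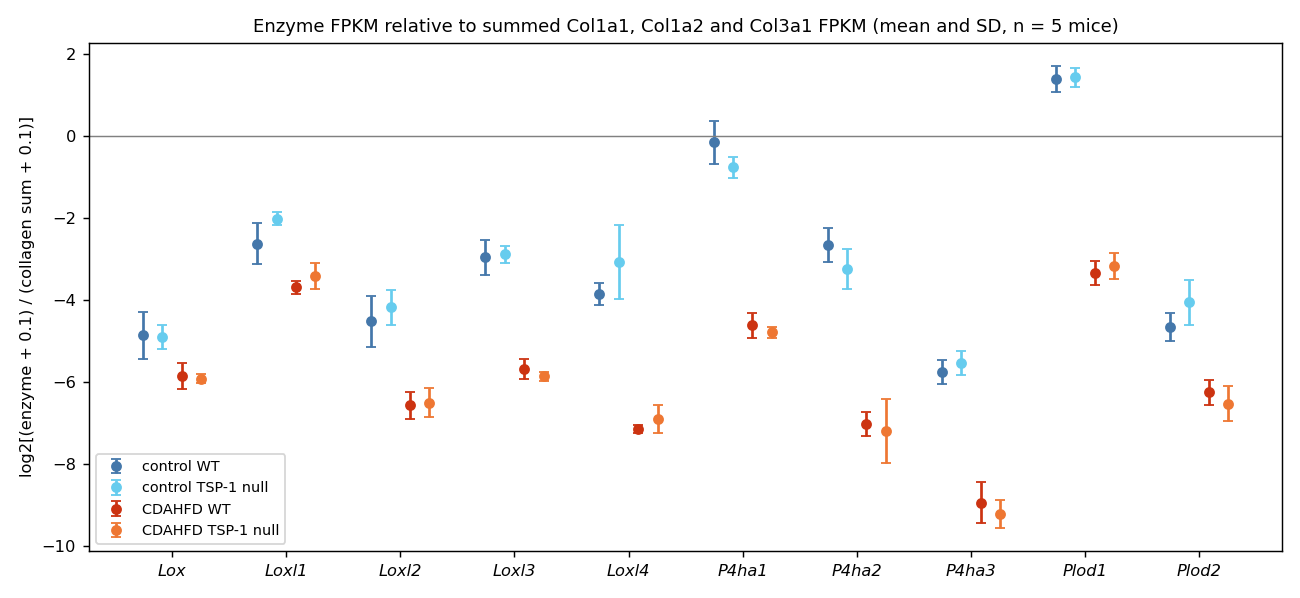
Log2 ratio of each enzyme gene to the summed FPKM of Col1a1, Col1a2 and Col3a1, with 0.1 added to both (vertical axis; mean and SD, n = 5 mice, in the 4 groups). The gap between diets is widest for Plod1 (-4.73 in WT), while for Lox and P4ha3, whose mean control levels lie below the added 0.1, the gap depends on that constant. The size of the gap also varied for Plod2 (-3.17 to -0.91 in WT) and Loxl2 (-3.40 to -1.43) over the alternatives, which include other constants, though both passed in all of them.

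The rest of the pathway was followed through 8 lists, of which 60 genes were tested, 32 of them called higher and 4 lower on CDAHFD in WT (28 and 16 under median of ratios scaling, 26 and 8 under quantile normalization). The diet comparison in libraries labelled TSP-1 null called 38 higher and 2 lower (26 and 10, and 26 and 5, under the same scalings). Among genes for collagen folding and modification in the endoplasmic reticulum, 6 of 10 rose in WT and 8 of 10 in libraries labelled TSP-1 null, and 0 fell (list median log2FC 0.84 and 0.82, all genes 0.53 and 0.50), where 44.1% and 41.9% of all tested genes were called higher. Under median of ratios scaling 4 rose and 1 fell in WT and 3 rose in libraries labelled TSP-1 null. Fkbp10, a peptidyl-prolyl isomerase needed for telopeptide hydroxylation, rose by 3.24 in WT (FDR 1.69e-11), Crtap, a part of the prolyl 3-hydroxylase complex, by 2.04 (FDR 3.94e-09), Fkbp7 by 1.21 (FDR 1.82e-08) and Serpinh1, the collagen chaperone HSP47, by 2.25 (FDR 7.37e-08). P4hb differed by 0.07 in WT (FDR 0.484) and by 0.42 in libraries labelled TSP-1 null (FDR 0.000147, under the fold threshold).

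Of 8 tested genes for procollagen export and processing, 3 rose and 1 fell in WT, and 3 rose and 0 fell in libraries labelled TSP-1 null (list median -0.09 and 0.03). The shares that rose are near or below those of all tested genes (44.1% and 41.9% called higher). Median of ratios scaling gave 3 higher and 5 lower in WT and 3 higher and 4 lower in libraries labelled TSP-1 null, so the balance of this list depends on the scaling. Adamts2, the procollagen N-propeptidase, rose by 3.16 in WT (FDR 1.15e-10), Pcolce, an enhancer of C-propeptide removal, by 2.21 (FDR 1.36e-09) and Adamts14 by 2.08 (FDR 8.05e-08), while Pcolce2 fell by 1.25 (FDR 0.00023). Of 12 tested fibrillar collagens and elastic fibre substrates, 11 rose in each genotype and 0 fell (list median 3.20 and 3.13), the same counts as under both other scalings, led by FDR in WT by Col1a2 (4.20), Col3a1 (4.46), Col5a2 (3.94) and Eln, the elastin gene (4.31). Col1a1 rose by 5.26 (FDR 1.69e-11), and Col5a3 differed by 0.02 (FDR 0.937).

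Cofactor supply was followed in the same way, where 44.1% of all tested genes were called higher in WT and 41.9% in libraries labelled TSP-1 null. Of 4 tested genes for ascorbate, 1 rose in WT and 2 in libraries labelled TSP-1 null, with Gulo, the last enzyme of ascorbate synthesis, at 1.14 in WT (FDR 1.01e-06). Under median of ratios scaling 0 rose in either genotype, and 2 fell in WT and 1 in libraries labelled TSP-1 null. Slc23a2, an ascorbate transporter, was lower in NDKO than in NDWT (log2FC -0.92, FDR 6.39e-05) and had a called interaction (log2FC 0.91). Of 5 tested copper genes, 1 rose in WT (Atp7a, which loads copper onto secreted enzymes, by 1.13, FDR 5.08e-06), and 3 rose and 1 fell in libraries labelled TSP-1 null, against 1 higher and 2 lower, and 1 higher and 1 lower, under that scaling. Of 5 oxygen-sensing hydroxylases, 1 rose in each genotype (P4htm, by 2.29 in WT, FDR 1.24e-07), and 1 also fell in WT under that scaling. Egln3 was called lower in NDKO than in NDWT (log2FC -0.59, FDR 0.00679), but this call was lost under both other scalings. Under median of ratios scaling and under quantile normalization, 0 of these 5 genes were called between genotypes on the control diet.

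Of 10 tested hypoxia-induced genes, 4 rose and 3 fell on CDAHFD in WT, and 4 rose and 1 fell in libraries labelled TSP-1 null (list median 0.14 and 0.10, below that of all genes). Of all tested genes, 44.1% and 41.9% were called higher. Median of ratios scaling turned the balance of this list, with 4 higher and 5 lower in WT and 2 higher and 4 lower in libraries labelled TSP-1 null. The 4 that rose in WT were Aldoa by 1.16, Slc2a1 by 1.15, Ndrg1 by 1.71 and Adm by 1.40 (FDR 3.61e-07 to 3.79e-06), and the 3 that fell are not named here. Of 6 tested genes induced by TGF-beta, 5 rose in WT and 6 in libraries labelled TSP-1 null, against 44.1% and 41.9% of all tested genes. The list median was 1.94 and 1.78, and 4 and 5 genes rose under median of ratios scaling. Among those that rose in WT were Tgfbi by 2.33, Tagln by 2.24, Ctgf by 3.00 and Skil by 0.88. On the control diet 1 of these 6 genes was called higher and 2 lower in NDKO than in NDWT, the same counts as under both other scalings. Of all tested genes, 4.77% were called there in either direction. Ctgf was the higher (log2FC 1.03, FDR 0.0410), Smad7 was among the lower (-0.76, FDR 0.0264), and the other lower gene is not named here. On CDAHFD 0 of 60 genes were called between genotypes by limma, where 0.496% of all tested genes were.

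**Figure D5:**
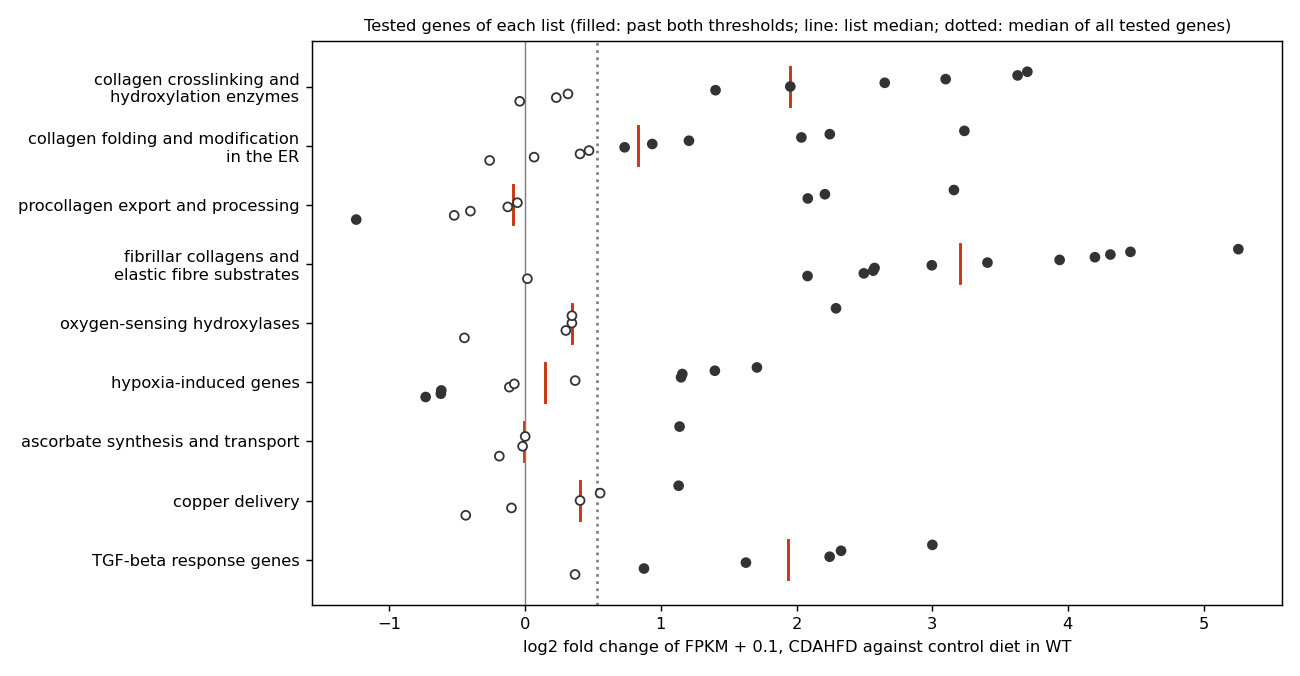
Log2 fold change of CDAHFD against control diet in WT (horizontal axis) for each tested gene of the enzyme list and of the 8 pathway lists; filled points passed both thresholds, red lines are list medians and the dotted line is the median of all tested genes (0.53). The collagen and elastic fibre list has the highest median (3.20), followed by the enzyme list (1.95) and the TGF-beta list (1.94). The enzyme list includes Lox, Loxl2 and Plod2, which entered the test through their CDAHFD values alone. It also includes Loxl4, which needed its CDAHFD values to enter, so this order is a description.

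Over the 20 libraries, Lox, Loxl1, Loxl2, Loxl3 and Plod2 followed each other with Pearson r of 0.95 to 0.98 in their 10 pairs, on log2(FPKM + 0.1). The diets form separate clusters, so these values describe the diet difference that all 5 share. With group means taken off, the same 10 pairs had r of 0.15 to 0.57. P4ha1 and P4ha2, the members called between genotypes on the control diet, had r = 0.60 over the 20 libraries and -0.07 with group means taken off, while P4ha2 and Plod2 had -0.52. Plod1 had its highest values with Loxl1 (0.75) and Loxl3 (0.70) within groups. All such values share library and depth and are descriptions.

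The genes whose pattern over the 20 libraries was most like that of each member were picked by Pearson r, the highest 2 for each member other than P4ha2, for which 1 is given. They were Tnc (r = 0.991) and Thbs2 (0.990) for Lox, Adamtsl2 (0.996) and Igfbp7 (0.994) for Loxl1, Cdk14 (0.982) and Robo2 (0.981) for Loxl2, and Itpripl2 (0.990) and Ahnak (0.990) for Loxl3. For Plod2 they were Cd200 (0.986) and Dcn (0.981), and for Loxl4 Tox2 (0.943) and Etv6 (0.921). The hydroxylase genes that moved less had Smcr8 (0.887) and Baz1b (0.878) for P4ha1, Ube2a (0.894) for P4ha2, and Sec16a (0.796) and Rptor (0.795) for Plod1. With group means taken off, the closest gene was Thbs2 for Lox (0.817), Islr for Loxl1 (0.938), Gtf2e1 for Loxl2 (0.777), Cmklr1 for Loxl3 (0.838), Serpine2 for Loxl4 (0.899), Nrg1 for P4ha1 (0.851), Actn4 for Plod1 (0.912) and Gm24864 for Plod2 (0.792).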

How the data were processed

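Poly(A) RNA from the livers of 20 mice was sequenced in paired-end runs, and the reads were processed with the QuickRNASeq pipeline. The submitters' processing notes list STAR 2.5.2, featureCounts and Subread 1.5.1, and the build GRCh38, whereas the table's coordinates are those of mouse GRCm38. The sampled lobe is the right medial one in the series text and the right lateral one in the methods. The authors deposited FPKM per gene, with no further normalization between libraries, and gene length, position and type. FPKM multiplied by gene length summed to the same total in each library, and FPKM, length and library total gave back whole fragments (15641545 to 23276322 per library). Of the values above 0, 99.78% to 99.96% could be checked (tolerance under 0.25 fragment), and 99.96% to 100% of these per library were whole to within 0.02 fragment beyond the rounding of the FPKM. Counting intervals and low counts cover counting error only, since the libraries carry no molecular identifiers.

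Groups came from the sample titles. Log2(FPKM + 0.1) was fitted for the 14524 genes that exceeded 0.5 FPKM in 5 or more libraries, using R 4.3.3 and limma 3.58.1 (1 mean per group over all 20 libraries, moderated variances with a trend), with two-sided Benjamini-Hochberg FDR over all tested genes within each comparison. Fold changes are on that scale and understate changes of low genes. Shares and ratios to collagen were compared by exact permutation in Python 3.11.15 with numpy 2.4.6. The scripts were tested on simulated data. Alternatives were pseudocounts of 0.01 and 1, 3 other filters, median of ratios and quantile scaling, no fold threshold, the 2 groups alone, eBayes without trend or robust, a block for replicate number, and leaving out each mouse. Voom on recovered fragments was added after the data were seen.

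The members, lists and tests were chosen with earlier results of these data known. Named genes are all members, Thbs1, Plod3, P4hb, Serpinh1, Col1a1, Col1a2 and Col3a1, at most 4 called genes per list by FDR in WT, and the genes most like each member. Egln3, Slc23a2, Smad7 and Col5a3 were chosen after their values were seen. Alb was the check of tissue. Some genes that these rules name are not reported here. Proteins are not used here, and promoters were matched by symbol.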

Additional observations from a re-analysis of the deposited data

Results flagged for a closer look

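In 84 groups of 5 mice (member FPKM and family shares), a library was set apart when its gap to the nearest other, divided by the range of its group, exceeded 0.71, which chance gives in about 1 of 20 groups. That happened in 6 groups. Loxl4 in NDKO replicate 5 was at 1.20 FPKM where the other 4 NDKO libraries had 0.317 to 0.543, and in the same library Loxl4 took 41.9% of the lysyl oxidase FPKM (others 13.4% to 21.3%) and Loxl1 took 30.0% (others 46.6% to 52.0%). Lox took 18.9% of its family in HFWT replicate 5, the library with the most fragments on Gm26924 and Gm23935, where the other 4 HFWT libraries had 10.8% to 12.6%. P4ha3 in NDWT replicate 1 was at 0.014 FPKM, 1 fragment, or 0.306% of its family, and the other 4 libraries were at 0.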

How the results depend on the processing

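Over 33 settings (32 for the interaction), 9 members and 5 comparisons, 1457 of 1476 member values kept their side of the thresholds. Some settings leave out a mouse from outside the comparison or drop the fold threshold, and so test a call little. Reversed were, all under quantile normalization, P4ha2 in the diet comparison in WT (-0.73) and in libraries labelled TSP-1 null (-0.30), and Loxl4 in the latter (-0.094). The cause was not tested. Of the members called on CDAHFD in libraries labelled TSP-1 null (8), 5 were called with a pseudocount of 1, 5 under median of ratios scaling and 5 under quantile normalization, and 7 to 8 with a mouse left out. Of the 2 called between genotypes on the control diet, 1 was called with a pseudocount of 1 and 1 under quantile normalization, and 1 to 3 with a mouse left out. The counts in the diet comparison in WT (6), between genotypes on CDAHFD (0) and for the interaction (0) did not change with a mouse left out. The diet calls in WT did change with scaling, to 6 higher and 1 lower under median of ratios scaling and 5 higher and 1 lower under quantile normalization. Shares passing were 4 to 8 and 7 to 8 between diets, and 0 to 1 between genotypes on each diet. Collagen ratios passing were 9 to 10 and 10 to 10 between diets with a mouse left out (8 and 9 with a pseudocount of 0.01), 0 to 2 between genotypes on the control diet (0 with a pseudocount of 1 and 0 with Col1a1 alone) and 0 to 1 on CDAHFD. Calls over the 8 lists stayed within 1.5 times under both scalings, but the split in WT went from 32 higher and 4 lower to 28 and 16 under median of ratios scaling. Over all genes, the genotype calls on the control diet went from 440 lower of 693 to 348 higher and 329 lower, and those on CDAHFD went to 38 higher and 27 lower.

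Same-numbered mice did not deviate together over all genes (r from -0.13 to 0.08), and nothing states that numbers mark pairs. Such values cannot exclude pairs that share differences in some genes only. With a replicate block, 6, 8, 2, 0 and 0 members were called in the 5 comparisons. An exact sign-flip test of 5 pairs cannot go below 0.0625, so shares and ratios were not tested in pairs. Levels near 0 in control libraries (Lox, Loxl2, Plod2, P4ha3) limit the precision of their fold changes.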
